A study of Mus musculus with 6 samples.

Results

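Amino acid carriers of the Slc1, Slc3, Slc6, Slc7, Slc36, Slc38 and Slc43 families were described in mouse liver RNA. The members were all protein-coding genes of the deposited count table whose symbol has the form of these family names, 62 genes of 43346 in the table. The symbol rule also takes in Slc7a6os, which is named for its place opposite Slc7a6 and is not a carrier. Its yeast counterpart acts in nuclear import of RNA polymerase II. The other 61 genes are described here by what they carry.

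All 6 livers came from mice on the FFC diet, which serves in this study as a dietary model of metabolic dysfunction-associated steatohepatitis. All received an adeno-associated virus 8 construct with a short hairpin RNA (shRNA). In libraries 2, 3 and 2600 the hairpin is labelled S100a11 and the genotype knockdown, and in libraries 28, 30 and 31 the hairpin is labelled scrambled and the genotype control. S100a11 encodes a calcium-binding protein, and the comparison asks what its silencing does to liver RNA under this diet. The sources used here give neither strain, age and sex nor the promoter of the construct. The labels do not say whether each library is its own animal, and the p-values then reflect only sample-to-sample spread, which may be technical.

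Amino acids cross membranes mainly through carriers. Slc1 proteins concentrate glutamate and aspartate, or exchange small neutral amino acids. Slc7 light chains reach the cell surface only when bound to a heavy chain, Slc3a1 or Slc3a2, while the cationic carriers of Slc7 act alone. Slc38 proteins move glutamine and alanine with sodium, Slc36 proteins move small amino acids with protons, and Slc43 proteins let large neutral amino acids diffuse. Slc6 proteins carry GABA, taurine, betaine, creatine, glycine and monoamines. Hepatocytes take up alanine, glutamine and arginine from portal blood for glucose and urea synthesis. Hepatocytes around the central vein take up glutamate to make glutamine.

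Promoters of 4 members on which the results turn are printed first, from RefSeq on GRCm38.p6, the patch of the build that the files use. Each runs from 250 bases before the start to 10 bases after it, 5′ to 3′ on the gene's strand. The first 3 belong to genes known to answer amino acid shortage through the factor ATF4, and 2 of these genes were lower in S100a11 shRNA livers and 1 higher. Capitals there mark the C/EBP-ATF response element, searched as TGATGNAA on both strands. The fourth belongs to Slc1a2, a gene of central vein hepatocytes, where Wnt signals act. Capitals in that promoter mark the TCF and LEF core, searched as CTTTGAT on both strands.
Slc7a11, lower, minus strand of chr3:50443604-50443863: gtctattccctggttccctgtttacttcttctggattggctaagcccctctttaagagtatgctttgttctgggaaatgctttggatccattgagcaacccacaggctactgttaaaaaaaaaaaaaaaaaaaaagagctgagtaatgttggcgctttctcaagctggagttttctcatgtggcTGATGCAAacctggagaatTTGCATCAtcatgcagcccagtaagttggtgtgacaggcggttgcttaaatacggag
Slc1a4, lower, minus strand of chr11:20332704-20332963: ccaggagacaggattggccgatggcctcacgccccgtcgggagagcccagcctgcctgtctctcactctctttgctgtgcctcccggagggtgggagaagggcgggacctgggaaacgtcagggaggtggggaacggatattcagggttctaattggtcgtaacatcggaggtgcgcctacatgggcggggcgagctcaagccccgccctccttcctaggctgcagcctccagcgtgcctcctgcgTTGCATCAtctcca
Slc38a2, higher, minus strand of chr15:96699719-96699978: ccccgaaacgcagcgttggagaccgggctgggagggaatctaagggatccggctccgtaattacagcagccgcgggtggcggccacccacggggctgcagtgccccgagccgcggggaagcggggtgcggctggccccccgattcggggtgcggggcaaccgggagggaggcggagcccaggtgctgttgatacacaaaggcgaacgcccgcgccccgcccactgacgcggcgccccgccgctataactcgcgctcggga
Slc1a2, higher, plus strand of chr2:102706188-102706447: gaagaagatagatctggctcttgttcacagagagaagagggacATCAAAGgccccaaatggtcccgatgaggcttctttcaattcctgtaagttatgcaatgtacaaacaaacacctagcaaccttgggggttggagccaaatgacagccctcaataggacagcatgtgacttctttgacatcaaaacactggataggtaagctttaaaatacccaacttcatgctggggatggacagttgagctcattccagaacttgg

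The Slc7a11 promoter held 2 matches to the C/EBP-ATF letters, with leftmost bases at -66 on the gene's strand and -47 on the other strand. Slc1a4 held 1 match, on the other strand, whose leftmost base lies at -4 and which runs across the start. The 260 bases of Slc38a2 held none of these letters, and the element known for this gene lies in an intron outside the window. Slc1a2 held 1 match to the TCF and LEF letters, at -207 on the other strand. Its RefSeq start lies inside the gene as deposited, so this window belongs to an internal start. RefSeq windows from 250 bases before to 50 bases after the start were found for 44 of the 62 members and for 12 of the 15 members that passed the test below. These 44 members have 65 windows, since a gene can have several starts. The C/EBP-ATF letters stood in 4 of the 65 windows, from 3 members (6.15%), and in 3.97% of all 32851 windows. The TCF and LEF letters stood in 4 of the members' windows (6.15%) and in 3.73% of all windows. Besides Slc1a2, which was higher, they stood in Slc7a1, which was lower, and in Slc38a9 and Slc38a10, which were not called. The letters of the antioxidant response element, TGACNNNGC, stood in 10 of the members' windows, from 8 members (15.4%), and in 12.4% of all windows.

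Depth was 53517387 to 69874237 counts in the S100a11 shRNA libraries and 57717111 to 78091845 in the scrambled libraries. Levels are given as CPM, read counts relative to the library's total after TMM scaling. S100a11 itself stood at 16.001, 3.55 and 3.41 CPM in S100a11 shRNA libraries 2, 3 and 2600, against 15.9, 22.9 and 30.0 CPM in scrambled libraries 28, 30 and 31. Library 2 was level with scrambled library 28, and S100a11, with a log2 change of -1.57 ± 0.56 (SE), was not called (edgeR adjusted p = 0.095). Without library 2 it was -2.75 (edgeR adjusted p = 0.00044). By an exact permutation of the 6 S100a11 values, two-sided, p was 0.2, and this design cannot go below 0.1. Directions below are therefore those of the libraries labelled S100a11 shRNA. The non-coding gene Gm26917 took 3.99% to 10.8% of counts in these libraries and 3.16% to 4.42% in libraries 28, 30 and 31.

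Of the 62 members, 40 passed the filter on low counts and were tested. At an adjusted p under 0.05 in edgeR's quasi-likelihood test, 4 of them were higher and 11 lower in the S100a11 shRNA livers, 15 of the 40. Over all tested genes 14.1% were called in either direction. Without library 3 and without library 31 the split was 4 higher and 2 lower, and without library 30 it was 2 and 2. Over all tested genes, calls without library 3 were 2.16% higher and 2.96% lower. They were 2.1% and 3.47% without library 31, and 1.12% and 2.54% without library 30. With all 6 libraries the members called are 10% and 27.5% of the tested members, beside 5.82% called higher and 8.28% called lower over all 19352 tested genes. In the other 25 tested members no difference was called. The groups did not overlap in 10 members that were higher and 13 that were lower, 25% and 32.5% of those tested. Over all tested genes the groups did not overlap in 16.5% (higher) and 18.1% (lower), 34.7% together. Tested members had a median log2 change of -0.13, against 0.04 for all tested genes. Without library 30 the members' median was -0.05 and that of all genes 0.03. With library totals alone as the scale, the split of called members was 3 higher and 16 lower, and the medians were -0.48 for members and -0.32 for all genes.

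**Figure D1:**
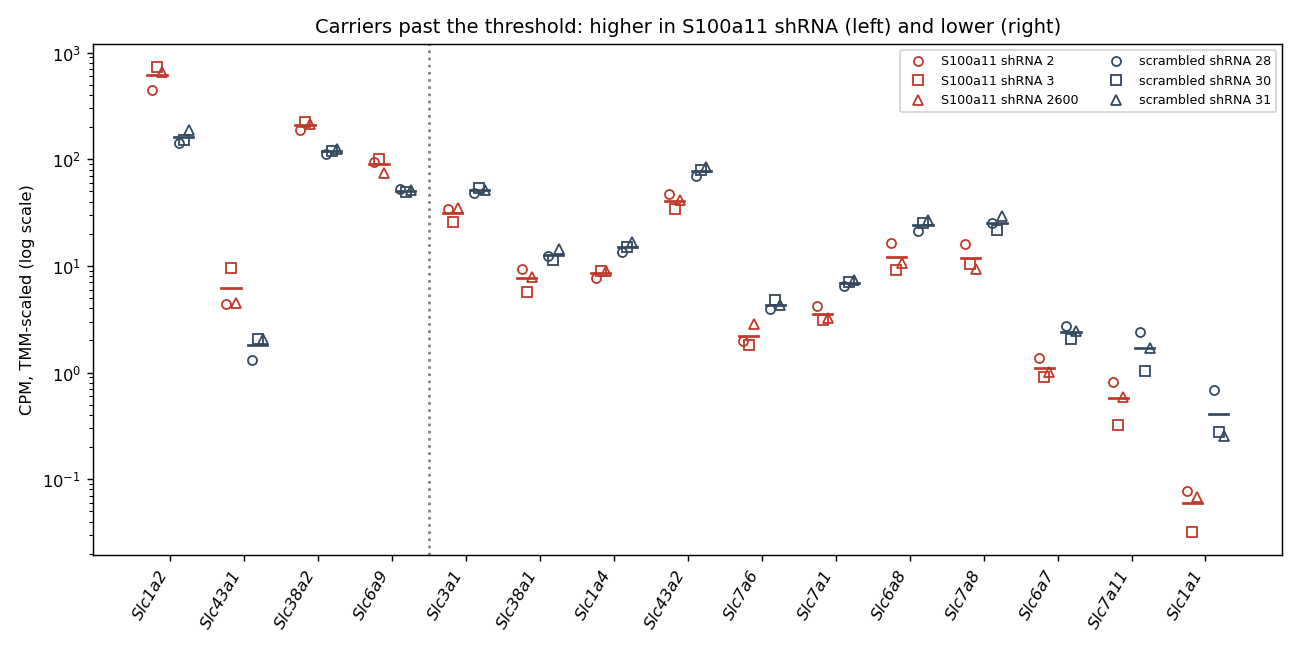
CPM (log scale) of the 15 members past the threshold in each library, S100a11 shRNA in red at the left of each gene and scrambled shRNA in dark blue at its right, with lines at the group means. In each of these 15 genes the 3 libraries of one group lie apart from the 3 of the other, from Slc1a2 at the left, 3.81-fold higher, to Slc1a1 at the right, where counts are few.

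Among carriers of glutamate and aspartate, Slc1a2 rose and Slc1a1 fell. Slc1a2 spans bases 102658659 to 102790784 of chromosome 2 (mm10) and encodes the high-affinity glutamate carrier GLT-1, which in liver is confined to hepatocytes around the central vein. Its level was 442, 729 and 664 CPM in S100a11 shRNA libraries 2, 3 and 2600, against 143, 152 and 186 CPM in scrambled libraries 28, 30 and 31. The lowest S100a11 shRNA library, number 2, lay well above the highest scrambled library. The difference was 3.81-fold (log2 change 1.93 ± 0.22 SE, n = 3 each, edgeR adjusted p = 0.0032). It passed the threshold without any single library, with log2 changes of 1.78 to 2.09. Of the 15 members called, Slc1a2 alone also passed a test against a change of 1.5-fold.

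Most markers of central vein hepatocytes moved with Slc1a2. Of 8 such markers 5 were higher and none lower, beside 5.82% and 8.28% of all tested genes. Their summed level, mostly Cyp2e1, was 7757 to 12960 CPM in S100a11 shRNA livers against 3221 to 3911 CPM in scrambled livers. Lgr5, Gulo and Axin2 were not called. In library 2 Lgr5 stood at 9.96 CPM, within the scrambled range of 8.52 to 10.7 CPM. Axin2 there, at 23.9 CPM, lay below all scrambled libraries, and Gulo stood at 328 against 302 to 327 CPM. Sums of portal vein hepatocyte markers lay apart too, at 5598 to 6773 against 3260 to 3553 CPM. Pck1 held much of the portal sum, at 3138 ± 522 against 993 ± 305 CPM. Of the 8 portal markers 2 were called higher, and 4 overlapped between the groups. Oat, ornithine aminotransferase, averaged 883 ± 388 CPM in S100a11 shRNA livers and 230.0 ± 14.2 CPM in scrambled livers (SD, n = 3 each). Rhbg, an ammonium carrier, averaged 19.4 ± 7.99 against 5.74 ± 0.21 CPM, and Cyp2e1, an ethanol-oxidising enzyme, 6953 ± 1863 against 2089 ± 209.7 CPM. Without libraries 3 and 30 in turn 3 of the 8 central vein markers were called higher. In whole liver RNA, a change in the number of cells of a type and a change in RNA per cell cannot be told apart. The part of this zone in the rise of Slc1a2 was not tested. The ratio of Slc1a2 counts to those of Slc38a3, chosen after the values were seen, is free of any scaling factor. It was 0.3502, 0.433 and 0.535 in libraries 2, 3 and 2600, against 0.122, 0.152 and 0.184 in libraries 28, 30 and 31. Slc1a2 was thus higher relative to the most abundant carrier in each S100a11 shRNA library.

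Slc1a1, the glutamate carrier EAAT3 of many epithelia, was near the floor of the data. It held 5, 2 and 3 counts in S100a11 shRNA libraries 2, 3 and 2600, against 46, 19 and 22 counts in scrambled libraries 28, 30 and 31. The log2 change was -2.72 ± 0.64 (edgeR adjusted p = 0.025), and leaving out library 28 made it -2.14. The call held only without library 2 and without library 31, and ended without any of the other 4 (adjusted p up to 0.11). Exons of a gene on the opposite strand, 4430402I18Rik, cover 31.9% of the Slc1a1 exon bases. That gene averaged 1.87 CPM against 0.23 CPM for Slc1a1, and whether counting used strand is not given, so the Slc1a1 value is uncertain. Slc1a3 and Slc1a7 averaged 0.77 ± 0.37 and 0.43 ± 0.24 CPM in S100a11 shRNA livers, against 1.26 ± 0.48 and 0.33 ± 0.18 CPM in scrambled livers. Neither was called, and Slc1a6 was not tested, with 38 counts over the 6 libraries.

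Slc1a4, the exchanger ASCT1 for alanine, serine and cysteine, fell. It stood at 7.70, 8.93 and 8.98 CPM in libraries 2, 3 and 2600, against 13.6, 14.96 and 16.9 CPM in scrambled libraries 28, 30 and 31. The groups lay well apart, and the fall was 1.78-fold (log2 change -0.83 ± 0.16, edgeR adjusted p = 0.012). It was lost without scrambled library 30 or 31 (adjusted p up to 0.058). Its relative Slc1a5, the glutamine exchanger ASCT2, stood at 5.05, 7.98 and 10.1 CPM against 11.6, 15.6 and 11.5 CPM. The groups did not overlap, but Slc1a5 did not pass the threshold (adjusted p = 0.089). It passed with library totals alone, with DESeq2 and without library 2600.

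**Figure D2:**
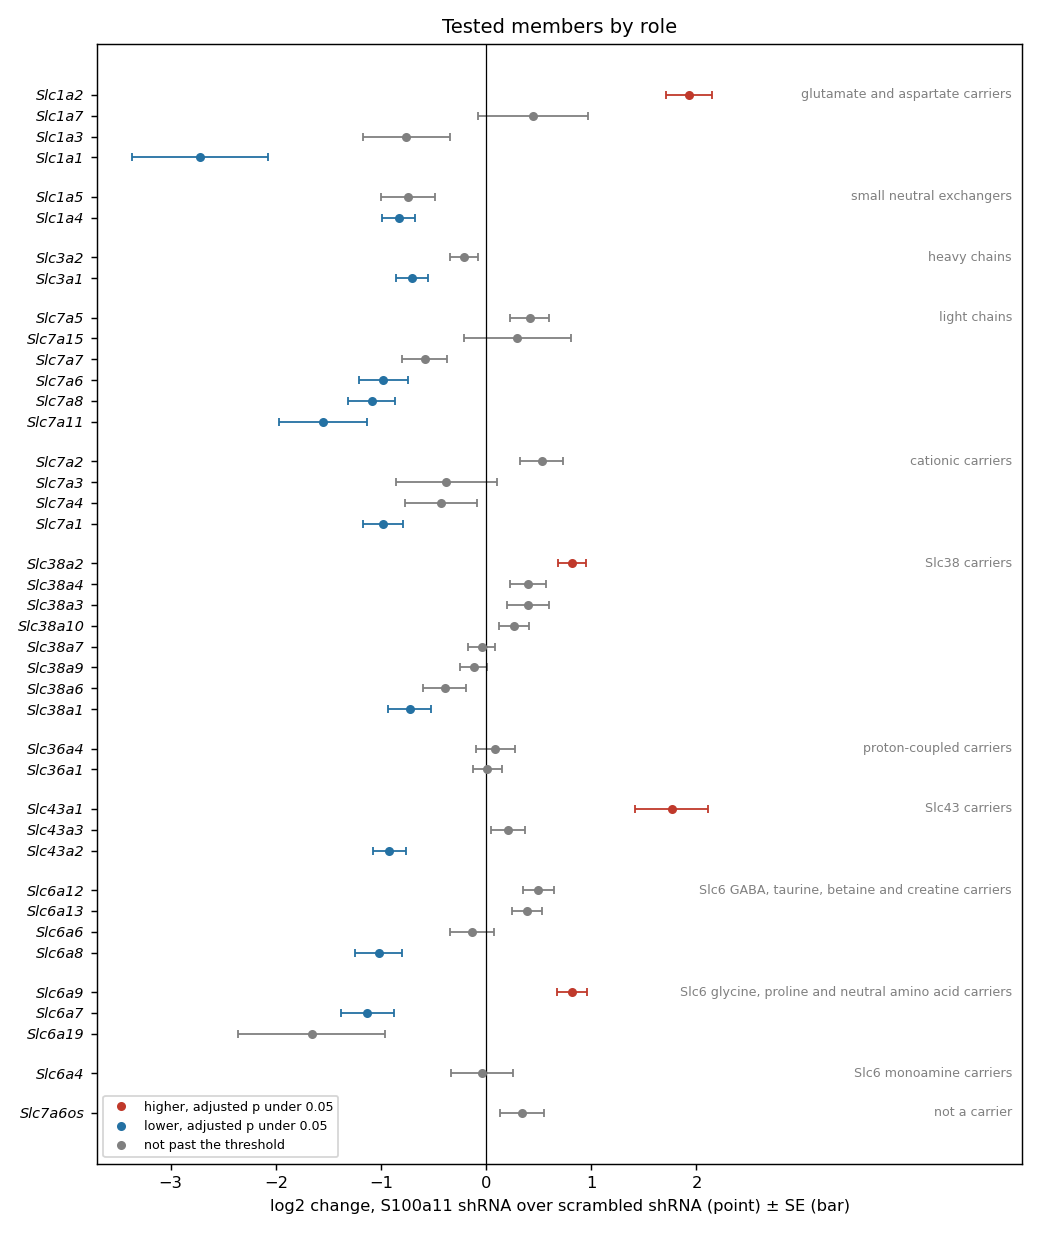
Log2 change of S100a11 shRNA over scrambled shRNA (points, with SE as bars) for the 40 tested members, grouped by role. The 4 called rises (red) are spread over 4 role groups, and the 11 called falls (blue) include 3 of the 6 tested light chains.

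The heavy chains differed. Slc3a1 encodes rBAT, the heavy chain of the cystine and cationic amino acid exchanger. Its level was 34.0, 25.5 and 34.9 CPM in libraries 2, 3 and 2600, against 47.8, 54.1 and 51.8 CPM in libraries 28, 30 and 31. It was 1.63-fold lower (log2 change -0.70 ± 0.15, edgeR adjusted p = 0.020), and not called without library 3, 30 or 31 (adjusted p up to 0.092). Its last exons overlap those of Prepl on the other strand over 26.5% of its exon bases, and Prepl, at a mean of 25.7 CPM, was not called. The light chains known to pair with rBAT, Slc7a9 and Slc7a13, held 11 and 12 counts over the 6 libraries and were not tested. Slc3a2, the heavy chain 4F2hc of all other heteromeric carriers, averaged 35.0 ± 3.86 CPM in S100a11 shRNA livers and 40.4 ± 2.12 CPM in scrambled livers and was not called (log2 change -0.21 ± 0.13, adjusted p = 0.33). It was called lower with library totals alone.

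Of 6 tested light chains 3 fell and none rose. Slc7a8 encodes LAT2, which exchanges neutral amino acids. It stood at 16.1, 10.4 and 9.32 CPM in libraries 2, 3 and 2600, against 25.3, 21.8 and 29.2 CPM in libraries 28, 30 and 31. This fall of 2.13-fold (log2 change -1.09 ± 0.22, edgeR adjusted p = 0.016) was lost without library 3 or 31 (adjusted p up to 0.070). Slc7a6 encodes y+LAT2, which exchanges arginine for glutamine. Its level was 1.97, 1.82 and 2.87 CPM in libraries 2, 3 and 2600, against 3.91, 4.80 and 4.31 CPM in libraries 28, 30 and 31. The groups lay apart, and the fall of 1.97-fold (log2 change -0.98 ± 0.23, edgeR adjusted p = 0.027) was lost without library 3, 28, 30 or 31.

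Slc7a11 encodes xCT, the cystine importer that feeds glutathione synthesis and that is induced by ATF4 and NRF2. It stood at 0.82, 0.32 and 0.59 CPM in libraries 2, 3 and 2600, against 2.38, 1.03 and 1.70 CPM in libraries 28, 30 and 31. The values rest on 20 to 53 counts in the S100a11 shRNA libraries and 71 to 160 in libraries 28, 30 and 31. Little lay between library 2, at 0.82 CPM, and library 30, at 1.03 CPM. The fall of 2.94-fold (log2 change -1.55 ± 0.42, edgeR adjusted p = 0.040) was not called without any single library other than library 2 (adjusted p up to 0.13).

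The remaining light chains were not called. Slc7a7, the arginine exporter y+LAT1, which macrophages also use, stood at 6.65, 4.25 and 4.75 CPM in libraries 2, 3 and 2600, against 7.10, 7.43 and 8.97 CPM in libraries 28, 30 and 31 (adjusted p = 0.10). It was called lower with library totals alone and without library 2. Slc7a5, the leucine carrier LAT1, averaged 4.64 ± 0.41 against 3.48 ± 0.34 CPM (adjusted p = 0.17) and is named here after its values were seen. The ratio of Slc7a5 counts to Slc7a8 counts, likewise chosen afterwards, was 0.286, 0.489 and 0.456 against 0.150, 0.163 and 0.107. The ratio of Slc7a8 counts to those of its heavy chain Slc3a2 was 0.480, 0.323 and 0.237 against 0.595, 0.571 and 0.718. Neither ratio overlapped between the groups. Slc7a15 was tested at a mean of 0.21 CPM and not called. Slc7a10 held 14 counts in all and Slc7a12 held 0, which does not show that its RNA is absent.

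Among cationic carriers Slc7a1 fell and the far more abundant Slc7a2 was not called. Slc7a1 is the widely expressed arginine carrier CAT-1. It stood at 4.21, 3.08 and 3.23 CPM in libraries 2, 3 and 2600, against 6.45, 6.99 and 7.41 CPM in libraries 28, 30 and 31. The fall was 1.98-fold (log2 change -0.98 ± 0.19, edgeR adjusted p = 0.013) and was lost without library 3, 30 or 31 (adjusted p up to 0.063). Slc7a2, the arginine carrier CAT-2 of hepatocytes, stood at 940, 912 and 664 CPM in S100a11 shRNA livers and 479, 618 and 649 CPM in scrambled livers. Its groups barely separated (log2 change 0.53 ± 0.20, adjusted p = 0.12). Slc7a3 and Slc7a4 were tested and not called, and Slc7a14 held 3 counts in all.

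Most markers of cholangiocytes and stellate cells, and some of macrophages, were lower in the same livers. Over all tested genes 8.28% were called lower and 5.82% higher. Of 10 cholangiocyte markers 9 were lower, with sums of 106 to 141 CPM in S100a11 shRNA livers and 316 to 382 CPM in scrambled livers. Of 12 macrophage markers 5 were lower and 1 higher (306 to 546 against 647 to 931 CPM), and of 8 stellate cell markers 6 were lower (368 to 719 against 863 to 1290 CPM). None of these markers was at 0 counts over all libraries. Of 8 lymphoid markers 1, Ptprc, was lower. Their summed level (53.7 to 73.3 against 90.4 to 119 CPM) was mostly Ptprc, at 61.0 ± 10.2 against 93.8 ± 14.0 CPM. Of 8 endothelial markers 2 were higher and 1 lower (621 to 880 against 594 to 671 CPM). Pkhd1 (75.3 ± 9.46 against 225 ± 25.6 CPM), Cldn4 and Krt19 led the cholangiocyte markers by p, Cd9, Trem2 and Timd4 the macrophage markers, and Pdgfrb (32.8 ± 5.41 against 80.6 ± 9.54 CPM), Pdgfra and Col1a2 the stellate markers. Timd4, of resident macrophages, was the 1 that rose. The other 6 macrophage markers were not called, and of these Clec4f, Vsig4, Adgre1 and C1qa overlapped between the groups. Clec4f had a log2 change of 0.0004. The stellate markers not called were Lrat (35.7 ± 8.34 against 34.5 ± 8.22 CPM) and Reln. Leaving out any single library but library 2 left 3 macrophage and 2 stellate markers called lower, and 8 or 9 of the cholangiocyte markers. The part of these cells in the falls of Slc1a4, Slc7a1, Slc7a6, Slc7a8 and Slc7a11 was not tested.

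In the Slc38 family Slc38a2 rose and its neighbour Slc38a1 fell. Slc38a2 is SNAT2, an alanine and glutamine carrier that cells induce when amino acids are scarce. It lies on chromosome 15 from 96687394 to 96699698. It stood at 188, 223 and 216 CPM in libraries 2, 3 and 2600, against 111, 119 and 125 CPM in libraries 28, 30 and 31. The rise was 1.77-fold (log2 change 0.82 ± 0.13, edgeR adjusted p = 0.0079) and held without each library in turn (adjusted p up to 0.044). It also held with library totals alone (log2 change 0.46).

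Slc38a1, the glutamine carrier SNAT1, lies 44480 bases away on the same chromosome. It stood at 9.43, 5.74 and 7.82 CPM in libraries 2, 3 and 2600, against 12.4, 11.4 and 14.3 CPM in libraries 28, 30 and 31. The groups separated by little, and the fall of 1.66-fold (log2 change -0.73 ± 0.21, edgeR adjusted p = 0.048) held only without library 2 and ended without each of the other 5 (adjusted p up to 0.15). The ratio of Slc38a2 to Slc38a1 counts was 19.95, 38.9 and 27.6 in S100a11 shRNA libraries against 8.95, 10.4 and 8.79 in scrambled libraries. This ratio, chosen after the values were seen, was 3.07-fold higher in the mean.

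The most abundant members were Slc38a3 and Slc38a4, and neither was called. Slc38a3 is SNAT3, the main glutamine carrier of hepatocytes, and stood at 1261, 1682 and 1242 CPM in libraries 2, 3 and 2600, against 1174, 998 and 1012 CPM in libraries 28, 30 and 31. Slc38a4 is SNAT4, an imprinted carrier of neutral and cationic amino acids, and stood at 1087, 1042 and 896 CPM against 743, 712 and 842 CPM. Both were higher in every S100a11 shRNA library, each with a log2 change of 0.39 or 0.40 (adjusted p = 0.23 and 0.16). With library totals alone their log2 changes were 0.04 each.

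The other tested Slc38 members include carriers of lysosomes. Slc38a9, the arginine sensor of lysosomes, averaged 27.2 ± 1.005 against 29.6 ± 2.56 CPM, and Slc38a7, a lysosomal glutamine exporter, 34.2 ± 2.87 against 35.2 ± 1.41 CPM. Slc38a10 averaged 121 ± 13.3 against 100.9 ± 11.2 CPM and Slc38a6 22.0 ± 6.85 against 29.0 ± 0.39 CPM. None of these 4 was called with all 6 libraries and TMM. Slc38a6 was called lower without library 2600 (log2 change -0.69, edgeR adjusted p = 0.021). With library totals alone Slc38a6 and Slc38a9 were called lower, and the sign of Slc38a10 turned. Slc38a5, Slc38a8 and Slc38a11 held 6, 8 and 34 counts in all and were not tested.

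**Figure D3:**
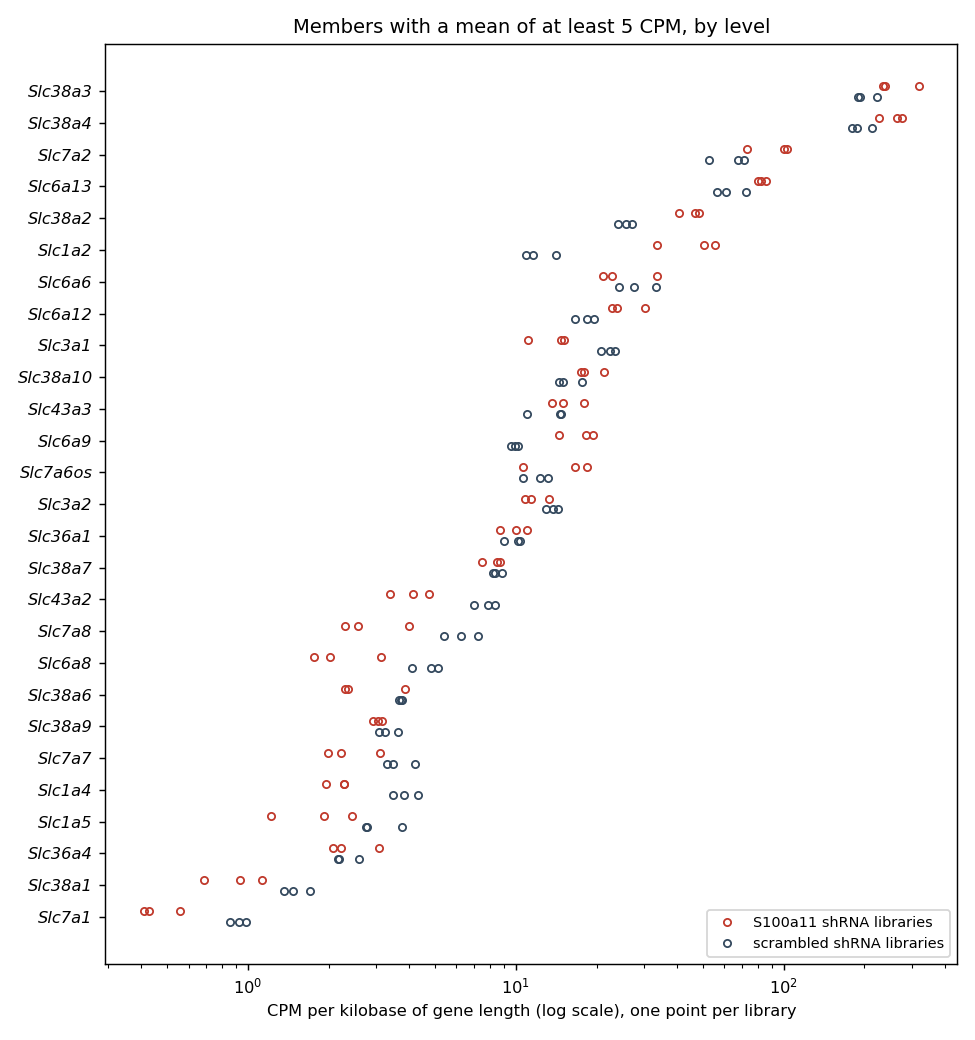
CPM per kilobase of deposited gene length (log scale) for the 27 members with a mean of at least 5 CPM, with a point for each library, S100a11 shRNA in red above scrambled shRNA in dark blue. Slc38a3 and Slc38a4 lead in both groups, and Slc1a2 lies between 33.6 and 55.5 in S100a11 shRNA libraries against 10.9 to 14.2 in scrambled libraries.

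Levels per kilobase of gene length allow the members to be ranked. Slc38a3 and Slc38a4 averaged 264 and 255 CPM per kilobase in S100a11 shRNA livers, against 201 and 194 in scrambled livers, and their ranges overlapped within both groups. Slc7a2 and Slc6a13 followed at 91.8 and 82.6 against 63.7 and 63.2 CPM per kilobase, again with ranges that overlapped. Together these 4 genes held 64.1% to 69.1% of the members' counts in S100a11 shRNA libraries and 67.4% to 69.6% in scrambled libraries. Slc1a2, at 33.6 to 55.5 CPM per kilobase, overlapped Slc38a2, at 40.7 to 48.2, in S100a11 shRNA livers. In scrambled livers Slc1a2 lay lower, at 10.9 to 14.2 against 24.0 to 27.1 CPM per kilobase for Slc38a2. This order depends on the length used. The deposited length of Slc38a2 is 4626 bases and its exons in GENCODE M21 cover 8838, with which Slc38a2 lay at 21.3 to 25.2 in S100a11 shRNA livers, below Slc1a2. With that length it lay at 12.6 to 14.2 in scrambled livers, where it overlapped Slc1a2. The members summed to 4759 to 5686 CPM in S100a11 shRNA libraries and 3644 to 3976 CPM in scrambled libraries. As a share of raw counts the groups overlapped, at 0.391% to 0.509% against 0.412% to 0.441%.

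Slc43a1 rose and Slc43a2 fell. They encode LAT3 and LAT4, which let leucine and other large neutral amino acids diffuse across the membrane. Slc43a1 stood at 4.41, 9.64 and 4.48 CPM in libraries 2, 3 and 2600, against 1.32, 2.06 and 2.07 CPM in libraries 28, 30 and 31. Library 3 stood highest, and all 3 S100a11 shRNA libraries lay above the scrambled ones. The rise was 3.40-fold (log2 change 1.76 ± 0.35, edgeR adjusted p = 0.014). It was 1.29 on the log2 scale without library 3, and the adjusted p was 0.055 without library 30.

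Slc43a2 was the more abundant of the pair and lies on chromosome 11 from 75531694 to 75577575. It stood at 47.4, 34.1 and 41.4 CPM in libraries 2, 3 and 2600, against 69.9, 79.0 and 84.0 CPM in libraries 28, 30 and 31. The fall of 1.89-fold (log2 change -0.92 ± 0.16, edgeR adjusted p = 0.0087) held without each library in turn (adjusted p up to 0.044). The ratio of Slc43a1 to Slc43a2 counts was 0.0930, 0.283 and 0.108 in S100a11 shRNA libraries against 0.0189, 0.0261 and 0.0246 in scrambled libraries. Slc43a3, a carrier of purine bases, averaged 69.4 ± 9.94 against 60.1 ± 9.52 CPM and was not called (adjusted p = 0.45).

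Among proton-coupled carriers no tested member was called. Slc36a1, which exports small amino acids from lysosomes, averaged 55.9 ± 6.55 CPM in S100a11 shRNA livers and 55.5 ± 4.07 CPM in scrambled livers, and its log2 change of 0.01 had an SE of 0.14. Slc36a4 averaged 13.7 ± 3.03 against 12.9 ± 1.37 CPM. Slc36a2 and Slc36a3 held 22 and 9 counts in all.

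Of the Slc6 carriers of organic osmolytes, Slc6a8 fell. Slc6a8 imports creatine. Its level was 16.3, 9.17 and 10.5 CPM in libraries 2, 3 and 2600, against 21.3, 25.1 and 26.7 CPM in libraries 28, 30 and 31. The fall of 2.03-fold (log2 change -1.02 ± 0.22, edgeR adjusted p = 0.020) held without library 2 and without library 28 and was lost without each of the other 4 (adjusted p up to 0.080). Slc6a13, the GABA and taurine carrier GAT2 of hepatocytes, averaged 240 ± 7.81 against 184 ± 23.4 CPM (adjusted p = 0.11). Its neighbour Slc6a12, the betaine carrier BGT1, averaged 78.2 ± 12.4 against 55.5 ± 4.39 CPM (adjusted p = 0.058) and was called with DESeq2 and without library 2. Neither of these neighbours overlapped between groups. Slc6a6, the taurine carrier, stood at 208, 130 and 141 CPM against 170, 150 and 205 CPM and was not called (adjusted p = 0.71). Slc6a11 held 0 counts in all.

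Among Slc6 carriers of glycine, proline and neutral amino acids Slc6a9 rose and Slc6a7 fell. Slc6a9 is the glycine carrier GLYT1. It stood at 94.3, 100.1 and 74.2 CPM in libraries 2, 3 and 2600, against 52.4, 49.3 and 51.0 CPM in libraries 28, 30 and 31. The scrambled libraries lay close together, all below library 2600. The rise of 1.76-fold (log2 change 0.82 ± 0.14, edgeR adjusted p = 0.0099) had an adjusted p of 0.057 without library 30 and 0.075 with library totals alone. Its exons overlap those of Ccdc24, on the other strand, over 27.8% of their bases, and Ccdc24 averaged 0.77 CPM.

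Slc6a7, the proline carrier known from brain, was scarce. It stood at 1.38, 0.91 and 1.0005 CPM in libraries 2, 3 and 2600, against 2.73, 2.06 and 2.45 CPM in libraries 28, 30 and 31. The fall of 2.19-fold (log2 change -1.13 ± 0.25, edgeR adjusted p = 0.022) held only without library 2 and was lost without each of the other 5 (adjusted p up to 0.084). Slc6a19, the neutral carrier of gut and kidney, was tested at 0.077 ± 0.082 against 0.26 ± 0.13 CPM and not called with all 6 libraries, though called without library 2. Slc6a4, the serotonin carrier, was tested at 1.05 ± 0.20 against 1.08 ± 0.26 CPM and not called. Another 9 Slc6 members held at most 31 counts over the 6 libraries. They are Slc6a2, Slc6a3, Slc6a5, Slc6a14, Slc6a15, Slc6a17, Slc6a18, Slc6a20a and Slc6a20b, of which the last pair are near copies that may share reads. Slc6a20b was called lower without library 2, with 31 counts over all 6 libraries. Exons of Sacm1l, on the opposite strand and at a mean of 48.6 CPM, cover 21.1% of its exon bases. The Slc6a20b value is therefore uncertain. Slc7a6os averaged 23.2 ± 6.22 against 18.4 ± 2.02 CPM and was not called with all 6 libraries. It was called higher without library 2 (edgeR adjusted p = 0.043).

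**Figure D4:**
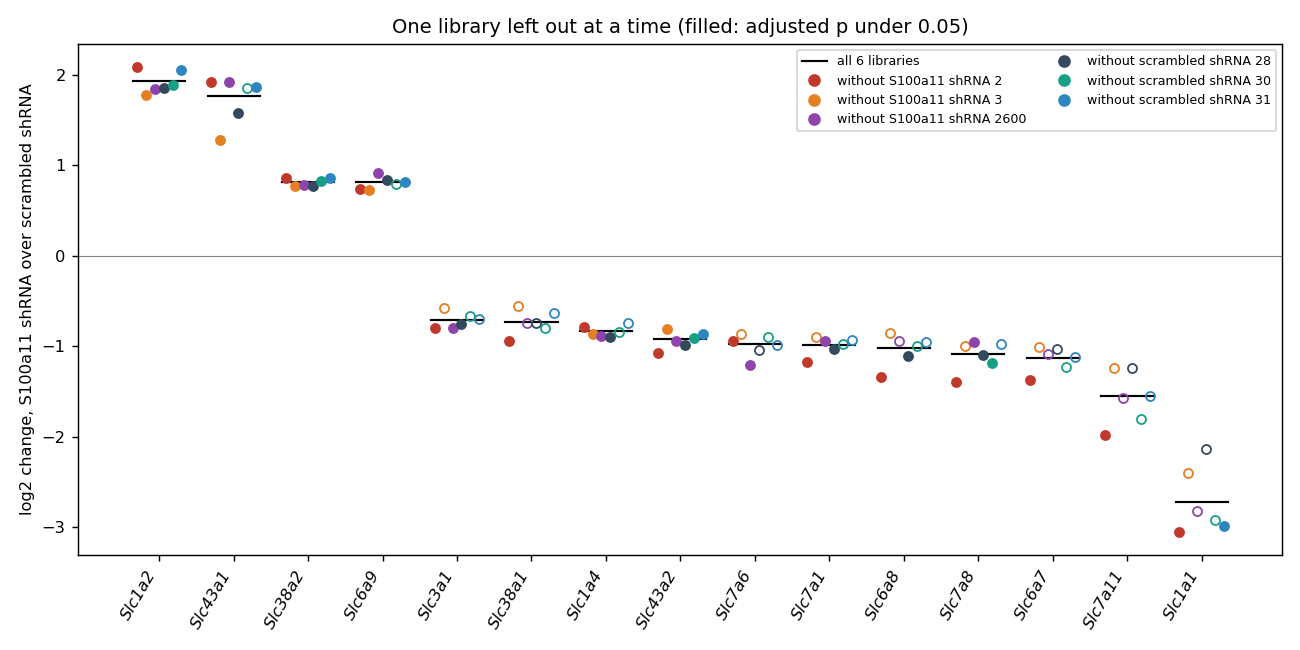
Log2 change of the 15 called members with all 6 libraries (black lines) and with each library left out in turn (points, filled where the adjusted p is under 0.05). Slc1a2, Slc38a2 and Slc43a2 stay filled throughout, while Slc38a1, Slc6a7 and Slc7a11 are filled only without library 2.

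The number of members called depended on which library was left out. Without S100a11 shRNA libraries 2, 3 and 2600 the number of members called was 20, 6 and 12, of which 15, 6 and 10 were among the 15 above. Without scrambled libraries 28, 30 and 31 it was 10, 4 and 6, all among the 15. Calls over all tested genes moved too, from 5.82% higher and 8.28% lower with all 6 libraries. Without libraries 2, 3 and 2600 they were 9.13%, 2.16% and 4.07% higher, and 12%, 2.96% and 6.29% lower. Without libraries 28, 30 and 31 they were 2.55%, 1.12% and 2.1% higher, and 5.18%, 2.54% and 3.47% lower. Slc1a2, Slc38a2 and Slc43a2 were called in each of these 6 fits. The sign of the log2 change was the same in each of the 6 fits for all 15 members.

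Genes that break down amino acids were mostly higher or not called. Their list also holds Glul, which makes glutamine and was among the rises. Glul and Oat stand among the central vein markers as well, so the lists share these rises. Of the 37 breakdown genes listed 17 were higher and 1 lower, 45.9% and 2.7%, beside 5.82% and 8.28% of all tested genes. The median log2 change was 0.53, beside 0.04 over all tested genes. Kmo, of tryptophan breakdown, averaged 311 ± 25.7 CPM in S100a11 shRNA livers and 141 ± 20.5 CPM in scrambled livers (SD, n = 3 each, edgeR adjusted p = 0.0050). Aass, of lysine breakdown, averaged 458 ± 34.5 against 247 ± 9.88 CPM (adjusted p = 0.0070), and Oat rose as described above (adjusted p = 0.0085). With library totals alone 8 of the 37 were higher, and without libraries 3, 28, 30 and 31 the rises numbered 7, 8, 4 and 8.

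Genes of the ATF4 response to amino acid shortage were split. Of 25 response genes 4 were higher and 6 lower, 16% and 24%, beside 5.82% and 8.28% of all tested genes. The median log2 change was -0.28. Fgf21, a secreted hormone, averaged 6.44 ± 1.72 against 18.5 ± 4.15 CPM and Atf3, a stress factor, 4.64 ± 1.88 against 13.0 ± 2.43 CPM (edgeR adjusted p = 0.0069 and 0.015). Cebpb, a partner of ATF4, averaged 77.0 ± 5.30 against 42.5 ± 10.8 CPM (adjusted p = 0.022). With library totals alone none rose and 11 fell, and the falls numbered 2, 4, 3, 2 and 1 without libraries 3, 2600, 28, 30 and 31. In those fits the rises numbered 1, 2, 1, 0 and 1. Of 8 carriers known as ATF4 targets, a set chosen after their values were seen, Slc38a2 and Slc6a9 rose. Slc7a11, Slc7a1 and Slc1a4 fell, and Slc3a2, Slc7a5 and Slc1a5 were not called. The printed promoters were picked from called members. Among them Slc7a11 and Slc1a4, both falls, held the C/EBP-ATF letters. Slc7a7, the other member with these letters in a window, was not called. A link between the letters and the direction of change was not tested.

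**Figure D5:**
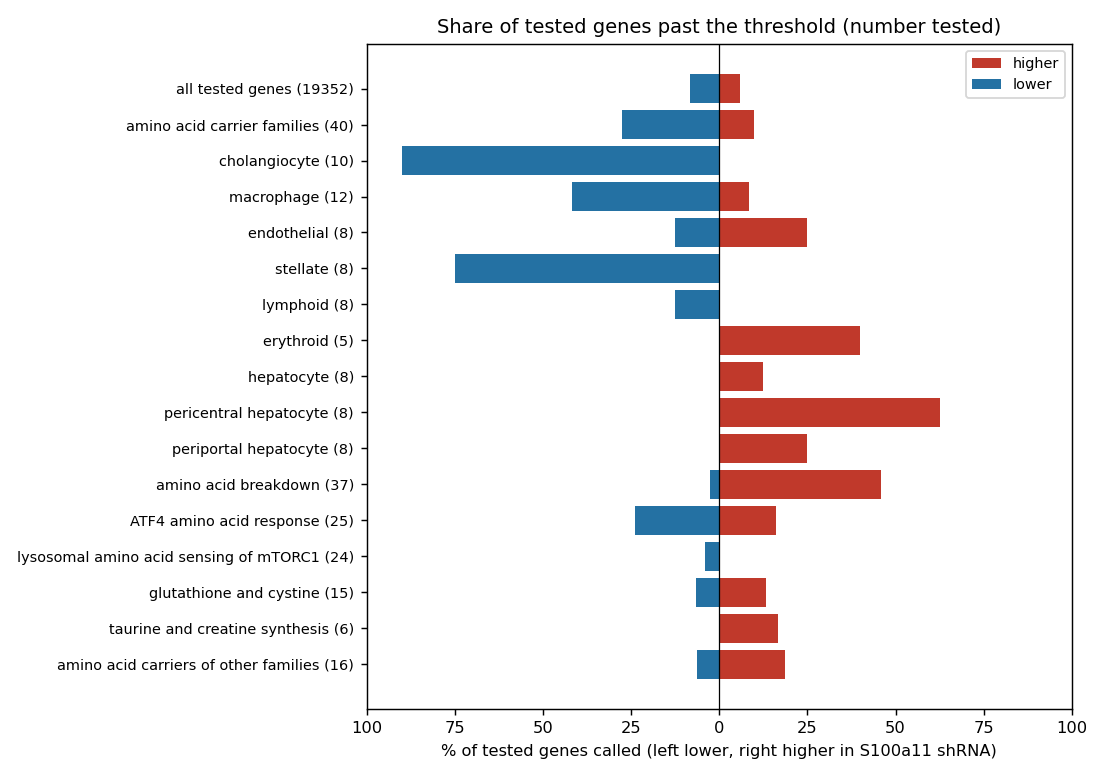
Share of tested genes called lower (blue, to the left) and higher (red, to the right) in S100a11 shRNA livers, in percent, for all genes, the carrier families and the other lists, with the number tested beside each name. The carrier families show 27.5% lower and 10% higher, the amino acid breakdown genes 2.7% and 45.9%.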

How the data were processed

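RNA of 6 livers was depleted of ribosomal RNA and sequenced from stranded libraries, per the labels' protocols. The authors deposited raw counts per Ensembl gene. The build is mm10, per the submitters' processing notes. The sources used here name no aligner, counter or strand setting for the counting. Groups came from sample titles, and 0 columns belonged to other samples. Members and lists were chosen with earlier results of these data known.

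The tests ran in edgeR 4.0.16 under R 4.3.3. filterByExpr (minimum count 10, minimum total 15) kept 19352 genes and at least 99.95% of each library's counts. TMM factors were 0.822 to 0.932 in the S100a11 shRNA libraries and 1.10 to 1.19 in the scrambled libraries, so the scaling differs by group. The groups were compared with glmQLFit (legacy off) and glmQLFTest, with Benjamini-Hochberg adjustment over all tested genes and a threshold of 0.05. Each SE is the log2 change divided by the root of F. CPM use the TMM-scaled library size, and levels per kilobase use the deposited gene length. No 2 libraries were alike within sampling noise (lowest chi-square per gene 48.4). By this measure on raw counts, S100a11 shRNA library 2 lay nearer to scrambled libraries 28, 30 and 31 (193, 223 and 158) than to libraries 3 and 2600 (235 and 349). Pairs of scrambled libraries lay at 48.4 to 75.2. All 62 members were found in GENCODE M21, which gave strands and exon overlaps. The list genes Adgre1, Castor1 and Castor2 were matched by identifier.

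Named genes were S100a11, each called member, each tested member with a mean of at least 5 CPM, and the 3 smallest p in each list. Values of a few genes are not reported here. Alternatives were other scaling factors, filters, thresholds and tests (DESeq2 1.42.0, limma 3.58.1), and leaving out each library. The legacy quasi-likelihood and the exon lengths of GENCODE M21 were added after seeing the data. Procedures were tested on simulated data. Tables were made with pandas 2.3.3 and numpy 2.4.6 and plots with matplotlib 3.10.9, in python 3.11.15. Depth limits the precision of members with few counts.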

Additional observations from a re-analysis of the deposited data

How the results depend on the processing

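The 15 called members kept their sign in each setting tried. The same 15 were called with RLE and upper-quartile factors, without the 20 most abundant genes, with no filter, with limma voom and with the legacy quasi-likelihood. At least 1 CPM in 3 libraries left 14, since Slc1a1 was not tested. DESeq2 and an adjusted p of 0.1 each gave 17, adding Slc1a5 and Slc6a12. Library totals alone gave 3 higher and 16 lower, losing Slc6a9, and over all genes 397 higher and 3970 lower. That scale is lower for all genes, and members stood at -0.17 relative to the median of all genes with either scale. A test against 1.5-fold left 1 higher and 0 lower member (177 and 439 of all genes). Over all genes an adjusted p of 0.1 gave 1819 higher and 2387 lower. Leaving out 1 library gave 2 to 6 members higher, 2 to 14 lower, and 221 to 1806 higher and 503 to 2370 lower genes overall. S100a11 ranged from -2.75 to -1.22 on the log2 scale without 1 library, and was -1.90 with library totals alone (adjusted p = 0.042) and -1.89 with limma voom (adjusted p = 0.042). The cause of these shifts was not tested. The signs of Slc36a1, Slc36a4, Slc38a7, Slc38a10, Slc43a3 and Slc7a6os, none of them called with all 6 libraries and TMM, turned under at least 1 setting. No paired analysis was possible because the groups share no replicate number. Calls of Slc1a1, Slc6a7 and Slc7a11 rest on few counts.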

Other observations

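Amino acid carriers of other families were mostly uncalled. Of 16 tested genes 3 were higher and 1 lower, beside 5.82% and 8.28% of all genes, with a median log2 change of 0.29 (-0.07 with library totals alone). Slc17a8, a vesicular glutamate carrier, averaged 38.6 ± 4.30 CPM in S100a11 shRNA livers and 17.2 ± 4.24 CPM in scrambled livers (SD, n = 3 each, edgeR adjusted p = 0.0083). Slc16a10, which lets aromatic amino acids leave the cell, averaged 110.2 ± 10.04 against 62.3 ± 8.27 CPM (adjusted p = 0.0097). Slc15a4 rose as well, named after its values were seen, and its relative Slc15a3, also a lysosomal histidine and peptide carrier, fell to 20.5 ± 5.51 CPM in S100a11 shRNA livers, against 42.4 ± 5.71 CPM in scrambled livers (adjusted p = 0.015).

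Of 24 genes by which lysosomes report amino acids to mTORC1, 1 was called. This fall is 4.17% of the list, beside 8.28% of all tested genes called lower. Rragd, a Rag GTPase, fell to 4.68 ± 0.99 CPM in S100a11 shRNA livers, against 20.5 ± 7.51 CPM in scrambled livers (edgeR adjusted p = 0.0050). Nprl2 and Rptor had the next smallest p and were not called (adjusted p = 0.091 and 0.12). With library totals alone 5 of the 24 fell, and without library 2 another 2 rose. Of 15 glutathione and cystine genes 2 were higher and 1 lower, 13.3% and 6.67%, beside 5.82% and 8.28% of all tested genes. Oplah, which opens oxoproline to glutamate, averaged 285 ± 58.6 against 156 ± 4.50 CPM (adjusted p = 0.013). Ggt6 rose and Ggt1 fell. Of 6 taurine and creatine synthesis genes Baat, which joins taurine or glycine to bile acids, rose (232 ± 6.69 against 154 ± 28.5 CPM, adjusted p = 0.043), and Cdo1 and Csad were not called. Without any single library but library 2, none of the taurine and creatine genes was called, and of the glutathione genes 0 to 2 were higher and 0 lower.

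Some markers of other cells and zones also differed, beside 5.82% of all tested genes called higher and 8.28% called lower. Of 8 hepatocyte markers Serpina1c was higher (891 ± 145 against 310.2 ± 28.9 CPM, edgeR adjusted p = 0.0035), and Ttr and Apoa2 were not called. Of 8 markers of hepatocytes near the portal vein Asl, of the urea cycle (511 ± 74.4 against 241 ± 18.7 CPM), and Pck1, of glucose synthesis (3138 ± 522 against 993 ± 305 CPM), were higher (adjusted p = 0.0060 and 0.0093), and Gls2 was not called. Of 5 tested erythroid markers 2 were higher, among them Alas2, of haem synthesis (54.6 ± 8.08 against 22.5 ± 3.77 CPM, adjusted p = 0.0049). The globin gene Hba-a2 stood near the floor, at 0.51 ± 0.46 against 0.15 ± 0.19 CPM. It overlapped between the groups and was not called. The endothelial markers called were Clec4g and Bmp2, both higher, and Lyve1, lower. Ptprc, which is not confined to lymphoid cells, was the 1 gene of the lymphoid list called, and it was lower. The other 7, Cd8a and Cd3e among them, were not called.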
